A study of Mus musculus with 16 samples.

Results

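The genes described here are 10 transcription factors of the red cell lineage: Gata1, Zfpm1, Klf1, Nfe2, Gfi1b, Bcl11a, Ikzf1, Myb, E2f2 and Foxo3. They were chosen by name for their known roles, with earlier results of these data known. All 10 were measured, out of 37154 genes tested on the array. Where several probes matched a gene, the brightest was used. The question was how the level of each factor changed along blood cell differentiation in culture, and how it differed between cells with and without DNA-binding Sp1.

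RNA came from mouse embryonic stem cells differentiated in culture. Sp1+/+ cells were the E14 line, for which the labels give the strain C57BL/6. Sp1-/- cells carry mutant Sp1 alleles whose product lacks the DNA-binding domain, so that the truncated protein is still made; they are a single mutant line. In each genotype, 4 populations were taken. Flk1+ cells, which contain the hemangioblast, were purified on columns from embryoid bodies. They were then placed in blast culture, where 3 further populations were sorted: the first hemogenic endothelium (HE1: KIT+, Tie2+, CD41-), the second (HE2: KIT+, Tie2+, CD41+) and progenitors (KIT+, Tie2-, CD41+). Each of the 8 groups has 2 arrays, 16 in all. The 8 Sp1+/+ arrays lay on 1 slide and the 8 Sp1-/- arrays on the other, and in a comparison of genotypes the slide and the genotype therefore cannot be told apart.

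Levels are log2 probe intensities as the authors normalised them, on which 1 unit is a 2-fold difference and values near 6 are at the array background. They are compared within a gene and never between genes, since probes differ in brightness. A gene was called where limma gave an unadjusted p of at most 0.01 and the means differed at least 2-fold; adjusted p is the Benjamini-Hochberg value over all genes tested. Error is the standard error of the difference in the fit over 16 arrays. The share of spots well above background was 67.0% to 77.14% per array. The Sp1 probe itself read between 12.14 and 12.56 on the Sp1+/+ arrays and between 9.03 and 10.29 on the Sp1-/- arrays. Whether that probe lies in the mutated part of the gene was not examined.

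Red cell formation is driven by GATA1, which acts with its cofactor FOG1 (the product of Zfpm1), and by KLF1, which binds CACCC boxes in globin and other red cell genes. NF-E2 and GFI1B act beside them, the latter as a repressor. MYB, IKAROS (Ikzf1) and BCL11A are better known for the immature and lymphoid stages and for globin switching, while E2F2 and FOXO3 act as red cells mature and leave the cell cycle. Sp1 is a ubiquitous zinc finger protein that binds GC boxes, and KLF1 belongs to the same wider family.

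RefSeq start sites were found for 9 of the 10 factors (all but Nfe2), and the 250 bases before each start were searched on both strands for 3 motifs. For Gata1, Zfpm1, Bcl11a and Ikzf1 the start used lies inside the annotated span of the gene. The bases before the upstream end of that span were not searched for these factors. The GC box, which Sp1 binds, was taken as GGGCGG. The letters searched for a CACCC-type box were CCNCNCCC. A GATA site was taken as GATAA. The windows of Gata1, Klf1, Gfi1b, E2f2 and Myb are printed because these 5 factors had the largest differences between genotypes, the smallest of the 5 being 1.09 on the log2 scale for Gfi1b. They are from build GRCm38.p6 and run 5′ to 3′ on the strand of the gene, and capitals mark a match to any of the 3 motifs, which can overlap each other. The Gata1 window is chrX:7967911-7968160 (minus strand), that of Klf1 is chr8:84901732-84901981 (plus), that of Gfi1b is chr2:28621983-28622232 (minus), that of E2f2 is chr4:136172024-136172273 (plus) and that of Myb is chr10:21160985-21161234 (minus).
Gata1: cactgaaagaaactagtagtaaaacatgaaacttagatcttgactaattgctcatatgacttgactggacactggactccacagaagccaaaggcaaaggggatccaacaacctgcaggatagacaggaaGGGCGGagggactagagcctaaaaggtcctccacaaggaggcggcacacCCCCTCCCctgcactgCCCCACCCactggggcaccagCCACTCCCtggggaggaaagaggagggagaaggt
Klf1: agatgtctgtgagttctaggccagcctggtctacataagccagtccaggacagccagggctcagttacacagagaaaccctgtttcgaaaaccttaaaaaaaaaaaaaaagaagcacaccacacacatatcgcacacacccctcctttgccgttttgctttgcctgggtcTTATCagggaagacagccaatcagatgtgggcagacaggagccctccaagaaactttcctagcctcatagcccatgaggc
Gfi1b: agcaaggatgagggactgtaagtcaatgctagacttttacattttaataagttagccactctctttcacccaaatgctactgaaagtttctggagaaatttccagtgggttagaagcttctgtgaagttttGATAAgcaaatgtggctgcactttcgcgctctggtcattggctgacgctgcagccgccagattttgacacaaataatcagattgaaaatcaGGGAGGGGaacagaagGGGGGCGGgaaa
E2f2: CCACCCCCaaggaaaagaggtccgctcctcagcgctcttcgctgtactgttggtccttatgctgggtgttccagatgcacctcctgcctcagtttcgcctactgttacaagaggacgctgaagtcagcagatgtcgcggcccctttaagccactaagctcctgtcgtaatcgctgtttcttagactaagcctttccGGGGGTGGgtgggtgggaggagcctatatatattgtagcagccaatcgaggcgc
Myb: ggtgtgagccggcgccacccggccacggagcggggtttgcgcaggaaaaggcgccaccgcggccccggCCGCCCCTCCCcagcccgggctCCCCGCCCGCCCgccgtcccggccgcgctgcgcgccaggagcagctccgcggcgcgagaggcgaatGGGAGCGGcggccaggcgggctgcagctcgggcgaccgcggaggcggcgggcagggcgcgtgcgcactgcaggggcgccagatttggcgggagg

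A GC box was found in 7 of the 9 windows, while 32.7% of all 32851 RefSeq windows of the same length hold one. Klf1 and E2f2 had none. The CACCC-type letters were found in 8 of the 9 windows, against 45.9% of all windows, and Klf1 was again without a match. The run CACCC itself stands unmarked in some windows, among them those of Klf1 and Gfi1b. The CACCC-type letters also match some GC boxes, as in Zfpm1, Bcl11a and Foxo3, so the counts of these motifs are not separate. GATAA was found only in the windows of Klf1 and Gfi1b, once each, against 22.6% of all windows. The windows of Foxo3 (5 GC boxes), Zfpm1 and Myb (3 each) held the most GC boxes, and those of Zfpm1, Myb, Ikzf1 and Foxo3 were at 73.2% to 82% G and C, where the median of all windows was 52.4%. A match describes the letters and says nothing of whether a factor binds there.

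**Figure D1:**
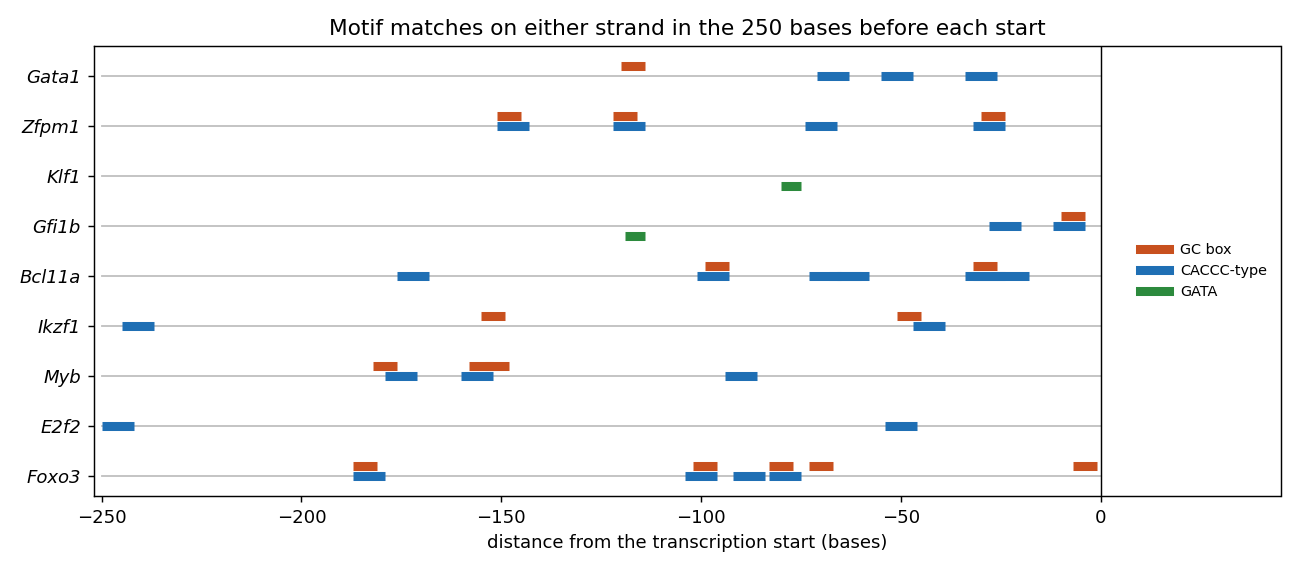
Positions of GC box (orange), CACCC-type (blue) and GATA (green) matches on either strand, by distance in bases from the RefSeq start (black line) for the 9 factors with a start site. Klf1 shows a single GATA match and E2f2 only CACCC-type matches, while Foxo3 shows 5 GC boxes.

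The arrays of some groups stood apart in ways that touch these genes. In Sp1+/+ HE1, replicate 1 read higher than replicate 2 for most of the factors: 9.57 and 6.89 for Gata1, 8.34 and 6.48 for Klf1, 11 and 9.04 for Nfe2, and 9.96 and 8.26 for Myb. The alpha globin gene Hba-a1, whose near-identical copy may share its probe, read 12.44 and 7.32 on the same arrays. In Sp1+/+ progenitors, replicate 2 was the higher for Gata1 (13.83 and 14.66), Klf1 (11.05 and 12.46) and Hba-a1 (14.30 and 16.27). In Sp1+/+ Flk1+ cells, replicate 2 was the higher for Gata1 (10.24 and 11.19), Nfe2 (9.86 and 10.96), Gfi1b (9.30 and 10.33) and Myb (9.62 and 10.66). It was the lower there for Bcl11a (9.49 and 8.69). In bulk samples such as these, fewer cells of a type and less RNA per cell cannot be told apart.

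Most of the factors followed a common course: level or falling from Flk1+ cells to HE1, then a steep rise into HE2, and for Gata1 and Klf1 a second rise into progenitors. At the step from HE1 to HE2, 6 of the 10 factors were called higher in Sp1+/+ cells, where 1.08% of all genes were called higher, and 7 in Sp1-/- cells, where the share was 2.08%. No factor was called lower at that step in either genotype. The median difference of the 10 was 2.48 in Sp1+/+ and 3.24 in Sp1-/- cells on the log2 scale, beside 0.015 and 0.01 over all genes.

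From Flk1+ cells to HE1, 3 factors were called lower in Sp1+/+ cells (3.89% of all genes) and 2 in Sp1-/- cells (4.87%). Without Sp1+/+ HE1 replicate 2 none of the 3 falls was called (Gata1 by 1.15, Bcl11a by 1.49 and Ikzf1 by 0.935), and without replicate 1 the count in Sp1+/+ cells was 5, with Nfe2 and Myb added. From HE2 to progenitors, 2 were called higher in Sp1+/+ (1.01% of all genes) and 3 in Sp1-/- cells (2.33%). The factors called at each step are named with their values in the paragraphs that follow.

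**Figure D2:**
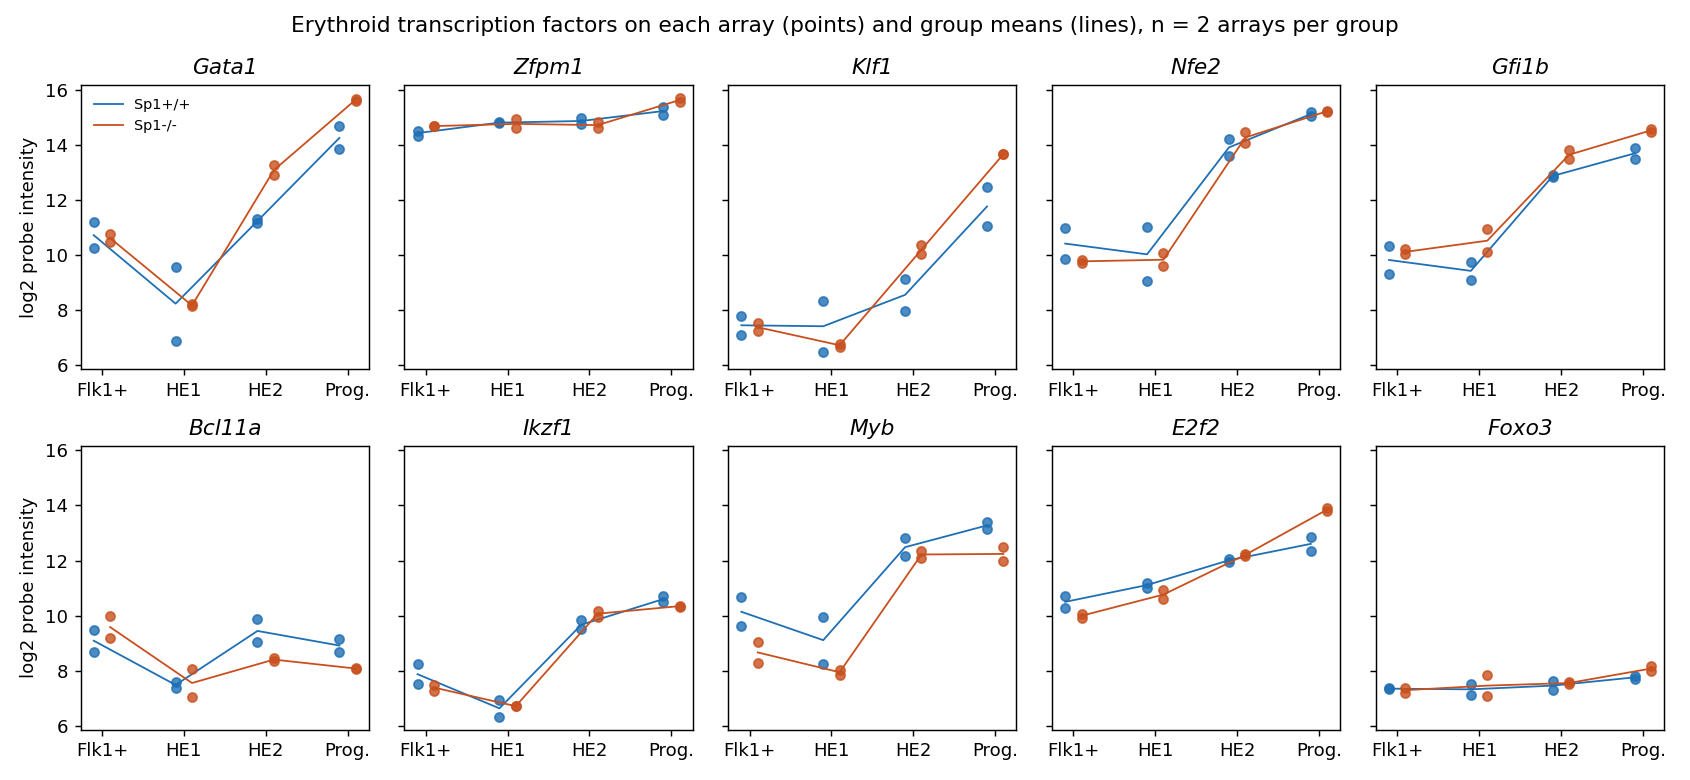
Log2 probe intensity of the 10 factors on each array (points) in Flk1+ cells, HE1, HE2 and progenitors, with lines through the group means of Sp1+/+ (blue) and Sp1-/- cells (orange), n = 2 arrays per group. Levels compare within a panel only; Gata1 dips at HE1 and rises to 15.60 and 15.67 in Sp1-/- progenitors, above both Sp1+/+ arrays.

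Gata1, the master regulator of red cell and megakaryocyte development, was present in Flk1+ cells, fell at HE1 and then climbed. In Flk1+ cells it read 10.24 and 11.19 in Sp1+/+ and 10.47 and 10.75 in Sp1-/- cells. In HE1 it read 9.57 and 6.89 in Sp1+/+ and 8.20 and 8.13 in Sp1-/- cells, so that the Sp1-/- arrays lay between the 2 Sp1+/+ arrays. In HE2 the values were 11.29 and 11.17 against 12.90 and 13.25, and in progenitors 13.83 and 14.66 against 15.60 and 15.67. In both of these later populations every Sp1-/- array lay above every Sp1+/+ array.

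The fall of Gata1 from Flk1+ cells to HE1 was called in both genotypes, by 2.48 on the log2 scale in Sp1+/+ cells (adjusted p = 0.0144 in limma) and by 2.44 in Sp1-/- cells (adjusted p = 0.0143). The latter lost its call without any 1 of the 4 arrays compared, at falls of 2.31 to 2.58, and the former without Sp1+/+ Flk1+ replicate 2 (2.01) as well as without Sp1+/+ HE1 replicate 2 (1.15). The rise from HE1 to HE2 was 8-fold in Sp1+/+ cells (adjusted p = 0.0123) and 30.1-fold in Sp1-/- cells (adjusted p = 0.000412), and both were called. In Sp1+/+ cells this step was 1.66 on the log2 scale without HE1 replicate 2 and 4.34 without HE1 replicate 1, and at 3 it was not called with only the 4 arrays compared. The further rise into progenitors was 8.08-fold and 5.90-fold (adjusted p = 0.0320 and 0.0216), again both called; in Sp1-/- cells the call was lost without HE2 replicate 1 (2.38) or without either progenitor array (2.59 and 2.52).

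Between genotypes, Gata1 was 3.59-fold higher in Sp1-/- HE2, a log2 difference of 1.84 with a standard error of 0.645 (adjusted p = 0.145 in limma), and 2.62-fold higher in Sp1-/- progenitors (log2 difference 1.39, adjusted p = 0.206); neither was called. The 95% intervals ran from 0.42 to 3.27 in HE2 and from -0.03 to 2.81 in progenitors. The widest pair for this gene was Sp1+/+ HE1, which enters the shared spread. Without either of those 2 arrays both differences were called at the same sizes. They were also called when only the 4 arrays compared entered the fit. In HE1 the difference was -0.065, and it became 1.27 without Sp1+/+ replicate 1 and -1.41 without replicate 2. In Flk1+ cells it was -0.105. Without Sp1+/+ progenitor replicate 1, the progenitor difference was 0.98.

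Zfpm1, which encodes the GATA1 cofactor FOG1, was bright on every array and nearly level. It lay between 14.33 and 14.96 on all 12 arrays of Flk1+ cells, HE1 and HE2. In progenitors it read 15.07 and 15.37 in Sp1+/+ and 15.54 and 15.70 in Sp1-/- cells, the highest group of each genotype, with the Sp1-/- arrays above the Sp1+/+ arrays. The progenitor difference between genotypes was 0.40 (SE 0.142, adjusted p = 0.0962), under 2-fold and not called. The rise from HE2 to progenitors in Sp1-/- cells, 0.91 (adjusted p = 0.00154), also stayed under 2-fold.

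Klf1, the activator of adult beta globin and of many genes of the red cell membrane, was at its lowest before HE2. It read between 6.48 and 8.34 on the 8 arrays of Flk1+ cells and HE1, where its probe was still well above background. In HE2 the arrays read 9.12 and 7.98 in Sp1+/+ and 10.02 and 10.36 in Sp1-/- cells, and in progenitors 11.05 and 12.46 against 13.66 and 13.65. From HE2 on, both Sp1-/- arrays lay above both Sp1+/+ arrays.

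The rise of Klf1 from HE1 to HE2 was called in Sp1-/- cells, at 11.1-fold (adjusted p = 0.00187), and was 2.20-fold in Sp1+/+ cells (adjusted p = 0.312), which was not called. The difference between these steps, 2.33 on the log2 scale (95% interval 0.50 to 4.16), had an adjusted p of 0.505 and was not called. Without Sp1+/+ HE1 replicate 1 the step in Sp1+/+ cells was 2.07 and was called, and the difference between the steps was called without Sp1+/+ HE1 replicate 2 (3.26) and without Sp1+/+ HE2 replicate 1 (2.90). The rise from HE2 to progenitors was called in both, at 9.22-fold in Sp1+/+ (adjusted p = 0.0148) and 11.04-fold in Sp1-/- cells (adjusted p = 0.0025).

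Klf1 was called higher in Sp1-/- progenitors, 3.73-fold, with a log2 difference of 1.90, a standard error of 0.587 and adjusted p = 0.0574 in limma. In that comparison 2 of the 10 factors were called, both higher, where 4.1% of all genes were called and 1.5% were called higher. The difference in HE2, 1.64 (adjusted p = 0.156), was not called, but was without either Sp1+/+ HE1 array (1.64) and without Sp1+/+ HE2 replicate 1 (2.21). The progenitor call lay close to the threshold and was lost in 9 of the 16 fits that left out 1 array: the difference was 1.20, not called, without Sp1+/+ progenitor replicate 1, the lower of that pair, and 2.60, called, without replicate 2. With the normexp offset of 16 that the methods state, the difference was 1.91 but was not called.

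Nfe2, the blood cell subunit of NF-E2, rose steeply on entry into HE2. It read 11 and 9.04 in HE1 and 14.21 and 13.59 in HE2 of Sp1+/+ cells, and 9.59 and 10.06, then 14.05 and 14.47, in Sp1-/- cells. The rises were 14.7-fold (adjusted p = 0.00112) and 21.6-fold (adjusted p = 0.000217), both called. Leaving out 1 Sp1+/+ HE1 array moved the Sp1+/+ step to 2.90 (without replicate 2) or 4.86 (without replicate 1) on the log2 scale. In progenitors the arrays read 15.05 and 15.17 in Sp1+/+ and 15.23 and 15.20 in Sp1-/- cells. The difference between genotypes there was 0.105, with a 95% interval from -1.04 to 1.25, and none of the differences between genotypes in the other populations was called (range -0.645 to 0.36).

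Gfi1b, a repressor needed for red cells and megakaryocytes, read 9.74 and 9.10 in Sp1+/+ HE1 and 10.09 and 10.94 in Sp1-/- HE1. In HE2 it read 12.91 and 12.82 against 13.48 and 13.79, and in progenitors 13.49 and 13.88 against 14.47 and 14.57. In these 3 populations the genotypes did not overlap, Sp1-/- being the higher each time, while in Flk1+ cells (9.30 and 10.33 against 10.02 and 10.20) they did.

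The HE1 difference in Gfi1b was called, at 2.14-fold (log2 difference 1.09, SE 0.344, adjusted p = 0.0717 in limma). Gfi1b was the 1 factor called in HE1, where 2.11% of all genes were called and 0.974% were called higher. The call was lost in 12 of the 16 fits that left out 1 array. It was lost without Sp1-/- HE1 replicate 2 (0.67), without Sp1+/+ HE1 replicate 2 (0.775) and with only the 4 HE1 arrays in the fit. The HE2 and progenitor differences, 0.77 and 0.835, stayed under 2-fold (adjusted p = 0.271 and 0.153). The step from HE1 to HE2 was called in both genotypes, at 10.9-fold in Sp1+/+ (adjusted p = 0.000224) and 8.69-fold in Sp1-/- cells (adjusted p = 0.000147).

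Bcl11a, a repressor of embryonic and fetal globin genes, ran a course of its own. It was highest in Flk1+ cells of Sp1-/- (9.97 and 9.20), where Sp1+/+ cells read 9.49 and 8.69. It fell at HE1 to 7.60 and 7.37 in Sp1+/+ and to 7.04 and 8.07 in Sp1-/- cells, and the fall was called in both, 3.04-fold (adjusted p = 0.0102) and 4.08-fold (adjusted p = 0.00224). Without Sp1+/+ Flk1+ replicate 1 the fall in Sp1+/+ cells was by 1.21 and was not called. In HE2 it read 9.86 and 9.03 in Sp1+/+ but 8.34 and 8.47 in Sp1-/- cells.

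The return of Bcl11a at HE2 was called in Sp1+/+ cells, 3.89-fold (adjusted p = 0.00861), and was 1.80-fold in Sp1-/- cells (adjusted p = 0.174), not called; the difference between the steps, -1.11, had an adjusted p of 0.658. Without Sp1-/- HE1 replicate 2 the return in Sp1-/- cells was 1.36 and was called. In progenitors the arrays read 9.14 and 8.69 against 8.09 and 8.07. Sp1-/- arrays were thus below Sp1+/+ arrays in HE2 and in progenitors, by 1.04 (adjusted p = 0.179) and 0.835 (adjusted p = 0.211) on the log2 scale, and neither difference was called. Without Sp1+/+ HE2 replicate 2 the HE2 difference was -1.46 and was called.

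Ikzf1, which encodes the lymphoid and erythroid regulator IKAROS, was dim in HE1, at 6.94 and 6.33 in Sp1+/+ and 6.72 and 6.71 in Sp1-/- cells, and its probe was not well above background on Sp1+/+ replicate 2. It then read 9.83 and 9.51 against 9.96 and 10.18 in HE2, an 8.20-fold and a 10.2-fold rise (adjusted p = 5.41e-05 and 9.51e-06), and 10.50 and 10.7 against 10.36 and 10.33 in progenitors. The fall from Flk1+ cells to HE1 was called in Sp1+/+ cells (2.36-fold, adjusted p = 0.00241) and lost its call when the mean over the gene's probes was used (-0.805) and without Sp1+/+ Flk1+ replicate 2 (-0.875). Between genotypes no difference was called, the range being -0.485 to 0.40. A second, dimmer probe gave differences between genotypes of -0.085 to 0.48. Its steps were smaller: the rise into HE2 was 0.985 on the log2 scale in Sp1+/+ and 1.245 in Sp1-/- cells. Its change from Flk1+ cells to HE1 in Sp1+/+ cells was -0.37, so the size of these steps depended on the probe.

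Myb, which keeps blood progenitors immature and dividing, was the factor most often lower in Sp1-/- cells. In Flk1+ cells it read 9.62 and 10.66 in Sp1+/+ and 8.27 and 9.06 in Sp1-/- cells. In HE1 it read 9.96 and 8.26 against 8.04 and 7.85, in HE2 12.81 and 12.16 against 12.36 and 12.08, and in progenitors 13.39 and 13.16 against 12 and 12.48. The genotypes did not overlap in Flk1+ cells, HE1 or progenitors, and overlapped in HE2.

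The differences in Myb were -1.47 in Flk1+ cells (adjusted p = 0.116 in limma), -1.17 in HE1 (adjusted p = 0.183), -0.265 in HE2 (adjusted p = 0.867) and -1.03 in progenitors (adjusted p = 0.228), each with a standard error of 0.502, and none was called. The Flk1+ difference was called without either Sp1+/+ HE1 array and without Sp1+/+ Flk1+ replicate 1, the HE1 difference without Sp1+/+ HE1 replicate 2 (-2.02), and the progenitor difference when the 4 progenitor arrays were fitted alone. The entry into HE2 was called in both genotypes, at 10.4-fold in Sp1+/+ (adjusted p = 0.00193) and 19.4-fold in Sp1-/- cells (adjusted p = 0.000215).

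E2f2, a cell cycle regulator active as red cells mature, showed the lowest adjusted p between genotypes among the 10. Its arrays read 10.29 and 10.71 in Sp1+/+ and 9.93 and 10.06 in Sp1-/- Flk1+ cells, and 11.20 and 11.02 against 10.61 and 10.92 in HE1. In HE2 they read 12.07 and 11.95 against 12.23 and 12.18, and in progenitors 12.34 and 12.87 against 13.89 and 13.81. The Sp1-/- arrays lay below the Sp1+/+ arrays in Flk1+ cells and HE1 and above them in HE2 and progenitors.

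In progenitors E2f2 was called higher in Sp1-/- cells, 2.37-fold (log2 difference 1.25, SE 0.182, adjusted p = 0.00103 in limma). The differences were -0.505 in Flk1+ cells (adjusted p = 0.136), -0.345 in HE1 (adjusted p = 0.281) and 0.195 in HE2 (adjusted p = 0.669), none called. The difference in progenitors exceeded that in Flk1+ cells by 1.75 (SE 0.257, adjusted p = 0.0036) and that in HE2 by 1.05 (adjusted p = 0.110), and both of these tests of the difference itself were called. E2f2 was the 1 factor called in each test; 3.81% of all genes were called in the former and 1.6% in the latter. No factor was called when the difference in HE1 was set against that in Flk1+ cells (1.6% of all genes called) or that in HE2 against that in HE1 (0.74%). In these 2 tests limma gave an unadjusted p under 0.05 for 0 and 1 factors. For progenitors against HE2 that number was 2, and for progenitors against Flk1+ cells it was 3, E2f2 included. The share of all genes at that looser threshold is not given. In Sp1-/- cells the rise of E2f2 was called at 2 steps, 2.71-fold into HE2 (adjusted p = 0.000328) and 3.13-fold into progenitors (adjusted p = 0.000173). In Sp1+/+ cells these were 1.87-fold (adjusted p = 0.009) and 1.51-fold (adjusted p = 0.128). Without Sp1+/+ progenitor replicate 1, the progenitor difference between genotypes was 0.98, just under 2-fold, and its excess over that in HE2 was 0.785, so neither was called. That excess was 0.99, also not called, without Sp1+/+ HE2 replicate 1.

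Foxo3, which drives antioxidant and cell cycle exit genes in late red cells, was dim and nearly level, between 7.08 and 7.84 on the 12 arrays before progenitors. In progenitors it read 7.81 and 7.71 in Sp1+/+ and 8.00 and 8.16 in Sp1-/- cells. No step and no difference between genotypes was called. The largest difference between genotypes was 0.32 in progenitors, with a 95% interval from -0.15 to 0.79.

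**Figure D3:**
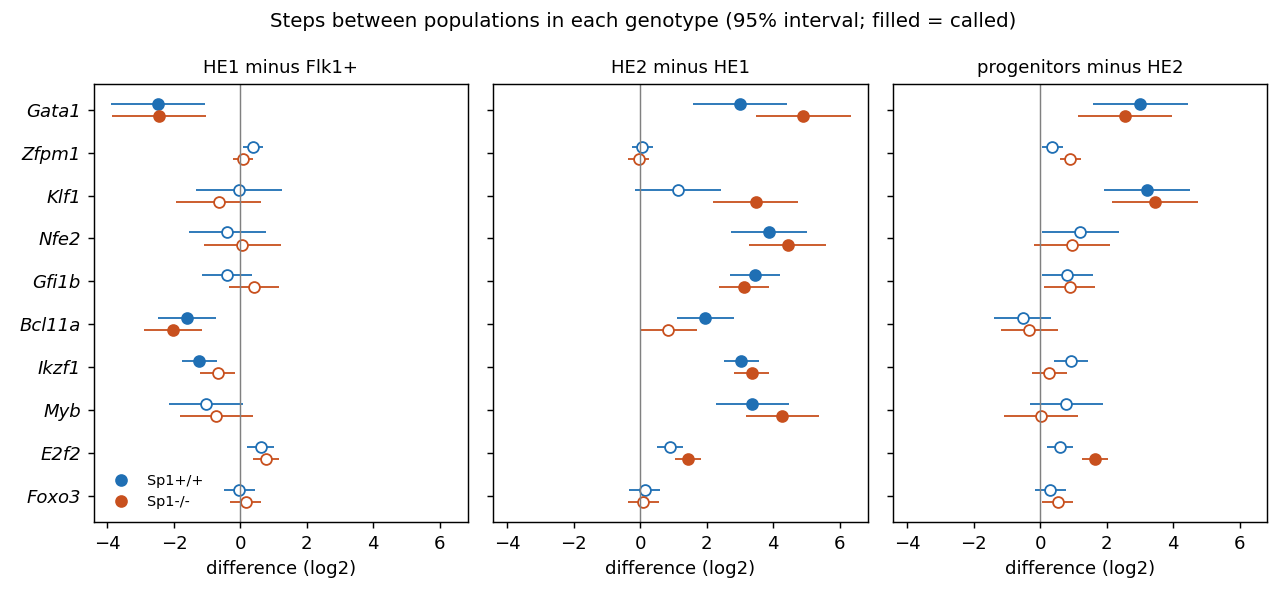
Log2 difference between successive populations for each factor in Sp1+/+ (blue) and Sp1-/- cells (orange), with 95% intervals from the fit over 16 arrays; filled circles were called. The step from HE1 to HE2 holds 6 called factors in Sp1+/+ and 7 in Sp1-/- cells, all to the right of 0.

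The factors called between genotypes were all higher in Sp1-/- cells, and none was called lower in any population. In progenitors all 10 factors had Sp1-/- arrays that did not overlap the Sp1+/+ arrays, 7 of them higher and 3 (Bcl11a, Ikzf1 and Myb) lower, but 62.5% of all genes tested did not overlap in that comparison. In HE2, 6 factors did not overlap, against 45.4% of all genes. In Flk1+ cells the count was 5 (51.6%) and in HE1 it was 3 (45%). No factor was called in Flk1+ cells or in HE2, where 1.65% and 1.95% of all genes were called. At the looser threshold of an unadjusted p under 0.05 in limma, without the 2-fold rule, there were 2 and 4. The share of all genes at that looser threshold is not given, so these 2 counts cannot be set against the percentages. The median difference of the 10 factors was -0.0875, -0.055, 0.278 and 0.36 from Flk1+ cells to progenitors, beside 0.01 to 0.02 over all genes.

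**Figure D4:**
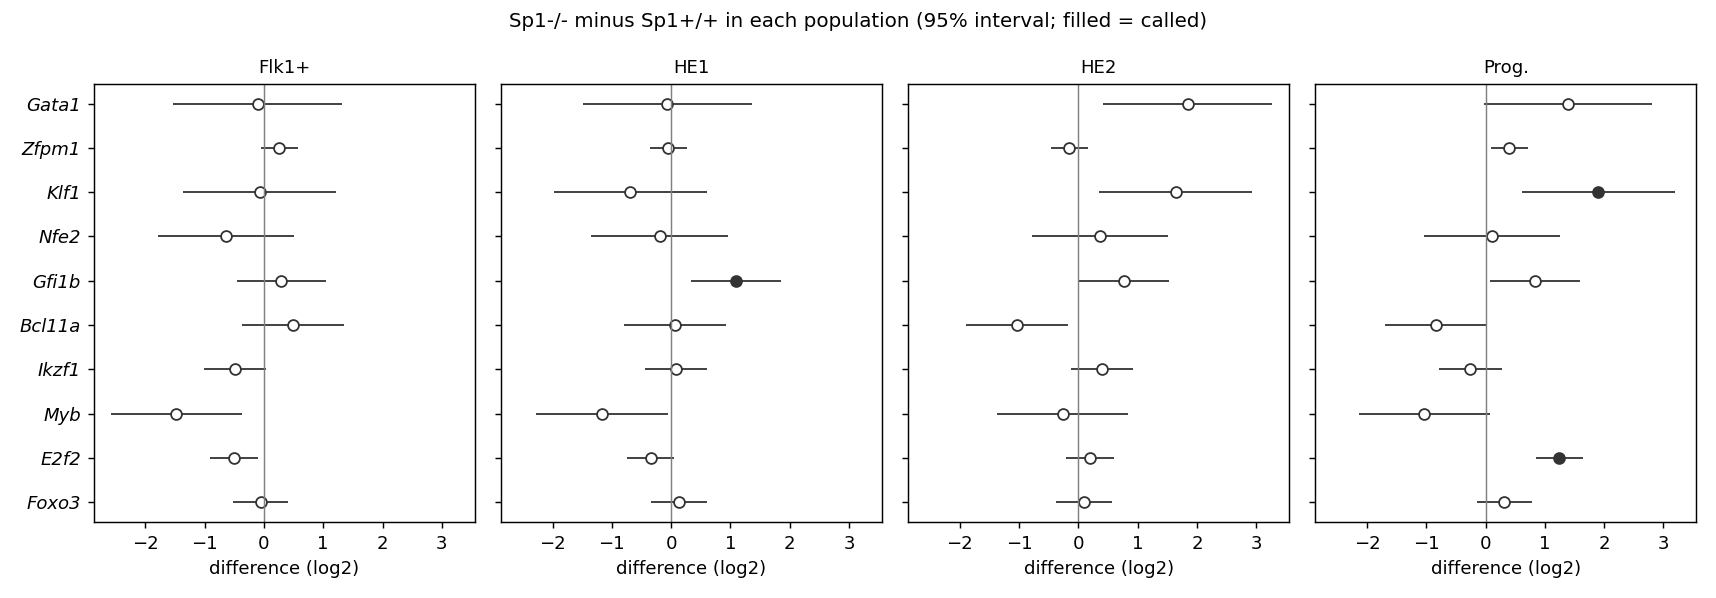
Log2 difference Sp1-/- minus Sp1+/+ for each factor in the 4 populations, with 95% intervals from the fit over 16 arrays; filled circles were called. Gfi1b is filled in HE1 and Klf1 and E2f2 in progenitors, and Myb lies left of 0 in all 4 panels.

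Few genes of proteins that act with these factors were called between genotypes. Of 12 genes of partners in the complexes of GATA1, NF-E2 and SCL (among them Tal1, the adaptors Lmo2 and Ldb1, and the small Maf genes), only Runx1, which is needed for the endothelial to hematopoietic transition, was called, 2.92-fold higher in Sp1-/- HE1 (log2 difference 1.54, adjusted p = 0.0135 in limma), where 0.974% of all genes were called higher. The differences of the 12 ran from -0.935 to 0.755 in Flk1+ cells. Runx1 read 10.03 and 9.08 on the Sp1+/+ arrays and 10.76 and 11.44 on the Sp1-/- arrays. Of 12 subunits of the corepressor complexes that GFI1B, FOG1, BCL11A and IKAROS recruit, none was called in any population, and their medians lay between -0.02 and 0.0775. From Flk1+ cells to progenitors, 1.65%, 2.11%, 1.95% and 4.1% of all genes were called. Among 12 genes, no call is near those shares.

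Among 25 family relatives of the factors, 1 was called lower in Flk1+ cells (0.867% of all genes) and 3 in progenitors (2.6%). None was called higher in any population, where 0.77% to 1.5% of all genes were. Gata3, a lymphoid GATA factor, was lower by 1.21 in Flk1+ cells (adjusted p = 0.0051) and by 1.87 in progenitors (adjusted p = 0.000144). Gfi1, the myeloid and lymphoid relative of Gfi1b, was 3.84-fold lower in Sp1-/- progenitors (adjusted p = 0.0034) while Gfi1b itself was 1.78-fold higher there and not called. Gata6, of heart and endoderm, was 2.94-fold lower (adjusted p = 0.0072). Gata2, which precedes GATA1 in blood cells, differed by -0.80 in Flk1+ cells and by 0.50 in progenitors, neither called.

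Erythroid genes known as targets of GATA1 or KLF1 were the group that differed most widely. Of 24 listed, 22 were tested, and the list was chosen with earlier results of these data known. In Sp1-/- progenitors 15 of the 22 were called higher and none lower, with a median difference of 2.15 on the log2 scale, beside 1.5% of all genes called higher and a median of 0.02. In HE2, 3 were called higher (0.77% of all genes) and the median was 0.458. That count was 0 without replicate 2 of either HE2 pair, 1 without Sp1-/- HE2 replicate 1 and 2 without Sp1+/+ HE2 replicate 1. In HE1 none was called, and in Flk1+ cells 1 was called lower (0.867% of all genes), with medians of -0.25 and -0.0675. The count in progenitors was 14 with a median of 1.53 without Sp1+/+ replicate 1, and 16 with a median of 2.63 without replicate 2.

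Slc4a1, the anion exchanger of the red cell membrane, was 23.8-fold higher in Sp1-/- progenitors (adjusted p = 1.42e-05 in limma), at 8.03 and 9.37 on the Sp1+/+ arrays and 13.36 and 13.18 on the Sp1-/- arrays. Add2, of the membrane skeleton, was 14.0-fold higher (7.75 and 9.21 against 12.25 and 12.32, adjusted p = 6.14e-05). Tspan33 was 9.32-fold higher (adjusted p = 0.000543) and Trim10 8.22-fold higher (adjusted p = 0.000285). In each of these 4 the genotypes were separated by more than the spread of either pair.

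The same group held heme and receptor genes. Alas2, the first enzyme of heme synthesis in red cells, read 10.65 and 12.23 against 14.51 and 14.37 in progenitors (log2 difference 3, adjusted p = 0.00489). Epor, the erythropoietin receptor, read 12.96 and 13.84 against 15.03 and 15.09 (1.66, adjusted p = 0.00159). Slc4a1, Add2 and Trim10 were the 3 called higher in Sp1-/- HE2, by 1.28, 1.27 and 1.36 (adjusted p = 0.0524, 0.0671 and 0.0539), and all 3 calls were lost without replicate 2 of either HE2 pair. In Sp1+/+ HE2, Trim10 and Add2 lay near the background, at means of 6.765 and 7.015. The Trim10 probe was well above background on only 1 of those Sp1+/+ arrays. Icam4 was lower in Sp1-/- Flk1+ cells by 1.48 (adjusted p = 0.0115) and higher in Sp1-/- progenitors by 2.12 (adjusted p = 0.000663).

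The globin genes of the list were not called in any population, and the Sp1+/+ progenitor replicates of Hba-a1 and Hbb-y were far apart. Hbb-y, an embryonic beta-like globin, read 14.03 and 15.95 on the Sp1+/+ and 18.16 and 17.78 on the Sp1-/- progenitor arrays (log2 difference 2.98, SE 1.06, adjusted p = 0.0964). Klf3, Bcl2l1 and Car2 differed by -0.565, -0.035 and 0.235 in progenitors and were not called. For 12 of the 22 genes the difference between genotypes was called larger in progenitors than in HE2, where 0.686% of all genes were called in that direction.

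**Figure D5:**
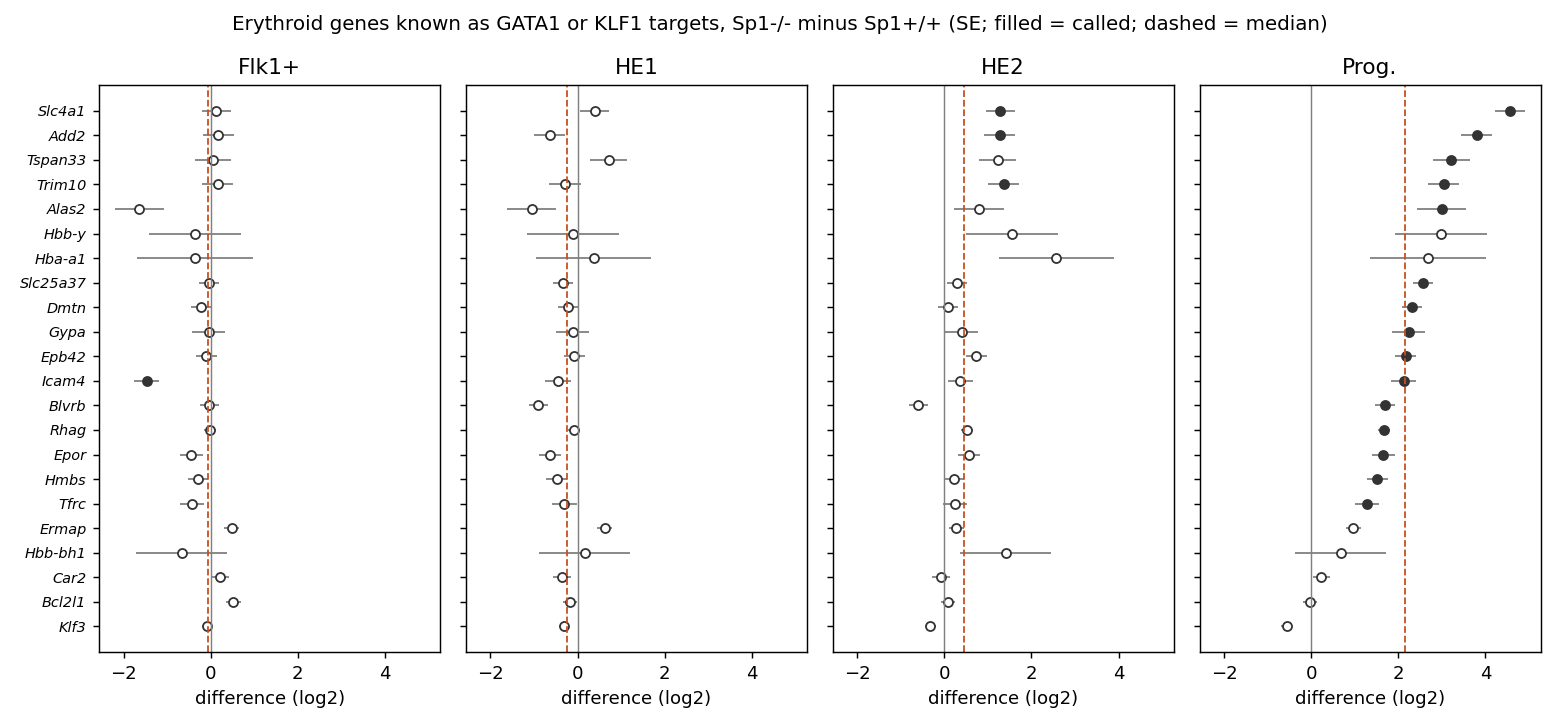
Log2 difference Sp1-/- minus Sp1+/+ for the 22 erythroid target genes in the 4 populations, with standard errors; filled circles were called and the dashed line is the median. In progenitors 15 circles are filled, all to the right of 0, around a median of 2.15.

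Of 11 genes known as FOXO targets, Txnip was called higher in Sp1-/- Flk1+ cells (1.59, with 0.781% of all genes called higher) and Gadd45a in HE1 (1.00, 0.974%) and progenitors (1.21, 1.5%). Sesn3 was called lower in HE1 (by 1.32, with 1.13% of all genes called lower), while the medians of the list lay between -0.01 and 0.28.

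Markers of other cell types also moved with genotype in progenitors, where 1.5% of all genes were called higher and 2.6% lower. Of 7 endothelial markers 6 were below Sp1+/+ and 2 were called lower, Esam by 2.67 and Cdh5 by 2.40. The mean level of that list was 10.53 and 9.45 on the Sp1+/+ and 8.68 and 8.91 on the Sp1-/- progenitor arrays. Neither Sox17 nor Emcn was well above background on a Sp1-/- progenitor array. Of 7 megakaryocyte markers 3 were called higher, Gp1bb (1.96), Gp9 (1.45) and Pf4 (1.16), with list means of 10.51 to 10.62 in Sp1+/+ and 11.13 to 11.30 in Sp1-/- cells. Of 7 myeloid markers Csf1r was called higher (1.48) and Cebpe lower (by 1.28), with list means of 11.29 to 11.30 and 11.31 to 11.37. None of 4 mast cell and basophil markers was called, and Fcer1a and Ms4a2 were not well above background on any progenitor array. Of the genes of the sorted surface proteins, Kit was lower by 1.23 (adjusted p = 0.0367) and Tek, which encodes Tie2, read 9.62 and 8.40 on the Sp1+/+ and 7.62 and 8.32 on the Sp1-/- arrays. In HE2 the myeloid marker Csf1r was called higher in Sp1-/- cells, by 1.75 (adjusted p = 0.0149 in limma), where 0.77% of all genes were called higher. No other marker of these lists was called between genotypes outside progenitors. The part of these shifts in the results for the factors was not tested.

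For factors whose group means spanned at least 2 on the log2 scale, the genes with the nearest course over the 16 arrays were found by the root mean square difference of centred log2 values. For E2f2 these were Dhrs11 (0.202), Fech, the last enzyme of heme synthesis (0.258), and Xk (0.327). The Klf1 list held Ncf4, Myo1f and Pirb (0.544 to 0.614), and that of Nfe2 held F13a1, Sla and Cst7 (0.532 to 0.557). The nearest to Gfi1b were Capn3, Dok2 and Rgs18 (0.426 to 0.498), and to Bcl11a they were Dnmt3b, Cdca7 and BC055324 (0.372 to 0.480). Ikzf1 lay nearest to Cebpb, Spi1 and Runx1 (0.317 to 0.497), and Myb to Ikzf1, Ptpn6 and AI467606 (0.623 to 0.712).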

How the data were processed

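RNA from 16 samples was hybridised to 1-colour Agilent arrays. Per the file headers the scans were read by Agilent Feature Extraction 10.7.3.1, while the submitters' processing notes name 10.7.1.1. The authors deposited log2 values, stated to be normexp-corrected with an offset of 16 and quantile normalised. The deposited median spot and background intensity columns gave the same values to within 0.005 with an offset of 50, and to within 1.63 with an offset of 16. Deposited log2 values were used as given.

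Target accessions were matched to RefSeq symbols (20869 of 37932 target names by accession, 6 by symbol), the brightest probe was kept per gene, and genes reaching 6 on at least 1 array were tested. limma 3.58.1 (R 4.3.3) fitted 8 group means, with 8 residual degrees of freedom before moderation, and was tested on simulated data. A gene was called at p of at most 0.01 and at least 2-fold. The number of arrays, 2 per group, limits the precision.

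All 10 factors were named whatever their values. From each gene list the called members with the largest change, at most 4 per population, were named, and in addition, chosen after their values were seen, Gata2, Alas2, Epor, Hbb-y, Hba-a1, Klf3, Bcl2l1, Car2, Tek, Sox17, Emcn, Fcer1a and Ms4a2. Up to 3 nearest genes were named for each factor. The factors and lists were chosen with earlier results of these data known. Replicates are described in the record and the study's text as biological, while 1 legend speaks of technical replicates; if that holds here, p-values measure technical spread. Ahsp and Hbb-b1 were not matched. Alternatives were other background corrections and scalings, filters, tests, a replicate block, probe averages, and leaving out each array. The genes nearest in course to Gata1 are not reported here.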

Additional observations from a re-analysis of the deposited data

Results flagged for a closer look

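The difference between Sp1-/- and Sp1+/+ cells in E2f2 was not the same in all populations by a test of the difference itself in limma. It was larger in progenitors than in Flk1+ cells by 1.75 on the log2 scale (adjusted p = 0.0036) and larger in progenitors than in HE2 by 1.05 (adjusted p = 0.110). The latter was 0.785 without Sp1+/+ progenitor replicate 1 and 0.99 without Sp1+/+ HE2 replicate 1, in both cases under the 2-fold that a call needs.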

How the results depend on the processing

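Differences of single factors were recomputed under 9 other settings of the processing and fit. Of the 1260 values, 1242 stayed called or not called as before, 13 lost a call and 5 gained one. Most of the differences were not called with the deposited values, and these could not lose a call. Adjusted p thresholds and the plain t-test are not among the 9 settings and are given below. The direction of values that were not called did not enter these counts. Without each array in turn, 2174 of 2240 values stayed as before, 37 lost a call, 28 gained one and 1 was called with the opposite sign. That last value was Gata1 in HE1 (-0.065), which was 1.27 without Sp1+/+ HE1 replicate 1 and -1.41 without replicate 2. Values that were not called could also change sign and still count as unchanged. Klf1 in HE1 did so, from -0.69 to 0.24 without Sp1+/+ HE1 replicate 1. The deposited values put 1 factor past the threshold in HE1 and 2 in progenitors between genotypes. In progenitors 1 factor was called with the normexp offset of 16, 1 without background correction, 1 with the processed signal scaled to the 75th percentile and 1 with a replicate block, in each case without Klf1. The processed signal also gave 0 in HE1, 1 from Flk1+ cells to HE1 in Sp1-/- cells and 1 from HE2 to progenitors in Sp1+/+ cells, and it moved the median difference of all genes in HE1 from 0.01 to 0.128. Fitting only the arrays compared gave 0 in HE1, 1 in HE2, 4 in progenitors (Gata1, Klf1, E2f2 and Myb) and 1 from Flk1+ cells to HE1 in Sp1+/+ cells.

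An adjusted p of at most 0.05 in limma gave 0 in HE1, 1 in progenitors and 0 for the difference between progenitors and HE2. At 0.01 these were 0, 1 and 0, with 1 factor from Flk1+ cells to HE1 in either genotype and 0 from HE2 to progenitors in Sp1+/+ cells. A plain t-test at the same threshold gave 0 in HE1, 1 in HE2, 0 in progenitors, 0 and 1 from Flk1+ cells to HE1 in Sp1+/+ and Sp1-/- cells, and, in Sp1+/+ cells, 1 at the entry into HE2 and 0 on entry into progenitors. After Benjamini-Hochberg adjustment it gave 0 in all of these comparisons, in HE1 to HE2 and HE2 to progenitors of Sp1-/- cells too.

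Leaving out 1 array at a time, the number of factors called between genotypes was 0 to 1 (Flk1+ cells), 0 to 2 (HE1), 0 to 2 (HE2) and 0 to 3 (progenitors). For the steps, in Sp1+/+ and Sp1-/- cells in turn, it was 0 to 5 and 1 to 2 (Flk1+ cells to HE1), 6 to 7 and 7 to 8 (HE1 to HE2), and 2 to 3 and 2 to 4 (HE2 to progenitors). For the differences between populations it was 0 for HE1 against Flk1+ cells, 0 to 2 for HE2 against HE1, 0 to 1 for progenitors against HE2 and 1 to 2 for progenitors against Flk1+ cells. The labels do not say that a replicate number marks a shared culture. Deviations of arrays with the same number correlated between -0.231 and 0.529 over 10 comparisons (5 over 0.1, 3 under -0.1), and the replicate block changed 1 call of a single factor, that of Klf1 in progenitors, where the difference was 1.90.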
